A study of Homo sapiens with 8 samples.

Results

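The response of control SK-Hep1 cells to dipyridamole was measured by RNA sequencing in 4 of the 8 libraries of the series. SK-Hep1 is an established human line from a liver tumour, and the control cells are those with the genotype "control", without ectopic SLC29A2. They were given no drug, sorafenib, dipyridamole, or both drugs, with 1 library for each condition. That the first library had no drug is read from its label, which calls both genotype and treatment "control". Doses, treatment times, any vector in the control cells and whether the SLC29A2 cells are 1 clone were not stated in the labels. Dipyridamole was compared as 2 library pairs: dipyridamole against no drug, and both drugs against sorafenib. Each condition has no replicate, so the error term holds the spread between libraries together with any change of the dipyridamole response by sorafenib, and p-values measure only these libraries. The 4 matching libraries of cells with ectopic SLC29A2 served as a comparison.

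Dipyridamole blocks equilibrative nucleoside transporters, which carry adenosine, uridine and other nucleosides across the plasma membrane, and it inhibits several cyclic nucleotide phosphodiesterases, the enzymes that degrade cAMP and cGMP. It has long been used against platelet aggregation. Sorafenib inhibits RAF kinases and growth factor receptor kinases and is given in liver cancer. Cells that lack amino acids, or whose endoplasmic reticulum is overloaded, translate the transcription factor ATF4, which switches on amino acid transporters, stress regulators and tRNA synthetases. Cells that leave the cycle silence genes of DNA replication and mitosis, the latter through a promoter element called the cell cycle genes homology region.

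The control-cell libraries held 14.07 to 16.69 M reads. Non-coding genes took 1.6% and 1.67% of reads without dipyridamole and 2.48% and 2.68% with it, and 22669 and 22744 genes had any reads without it against 23766 and 24801 with it. Mitochondrial transcripts took 3.71% and 3.04% of reads without dipyridamole, 5.74% with dipyridamole alone and 1.88% with both drugs. The part of these shifts in the results below was not tested. SLC29A2 itself was at 7.11 to 7.81 FPKM in the 4 libraries, against 1477 to 3040 FPKM in SLC29A2 cells. The hepatocyte genes APOA1 and TTR were at 0 FPKM in all 4 libraries, ALB at 0.11 FPKM at most and CYP3A4 at 0.047 FPKM at most. AFP was at 0.26 to 0.76 FPKM, and SERPINA1 was the hepatocyte marker that reached a mean of 1 FPKM. The endothelial genes PECAM1, CDH5, KDR and TEK did not exceed 0.26 FPKM, while ESAM reached 0.68 and VWF 1.54 FPKM. In the 4 libraries 0 of 6 endothelial, 1 of 6 hepatocyte, 0 of 5 leukocyte, 3 of 5 epithelial and all 6 mesenchymal markers reached a mean of 1 FPKM, and of the mesenchymal markers THY1 fell (-1.19 ± 0.18, adjusted p = 1.8e-04).

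Dipyridamole changed 3244 of 14112 genes at a limma adjusted p under 0.05. Of these, 2184 rose, which is 15.5% of genes tested, and 1060 fell, 7.51%. Counts in the gene lists below are to be read against these shares. The genes that rose had lower levels, with a median of 9.38 FPKM without dipyridamole, than those that fell, with 51.3 FPKM. At least a 2-fold difference in both library pairs was seen for 384 genes upward (2.72%) and 216 downward (1.53%). Across genes the differences of the 2 pairs had a Pearson r of 0.641, and 20 genes differed at least 2-fold in opposite directions. Libraries with and without dipyridamole did not overlap for 2007 of the 2184 risen and 1003 of the 1060 fallen genes. The same held for 4840 of the 10868 genes not called, so non-overlap was common. The plot of the 2 pairs shows the large changes along the diagonal.

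**Figure D1:**
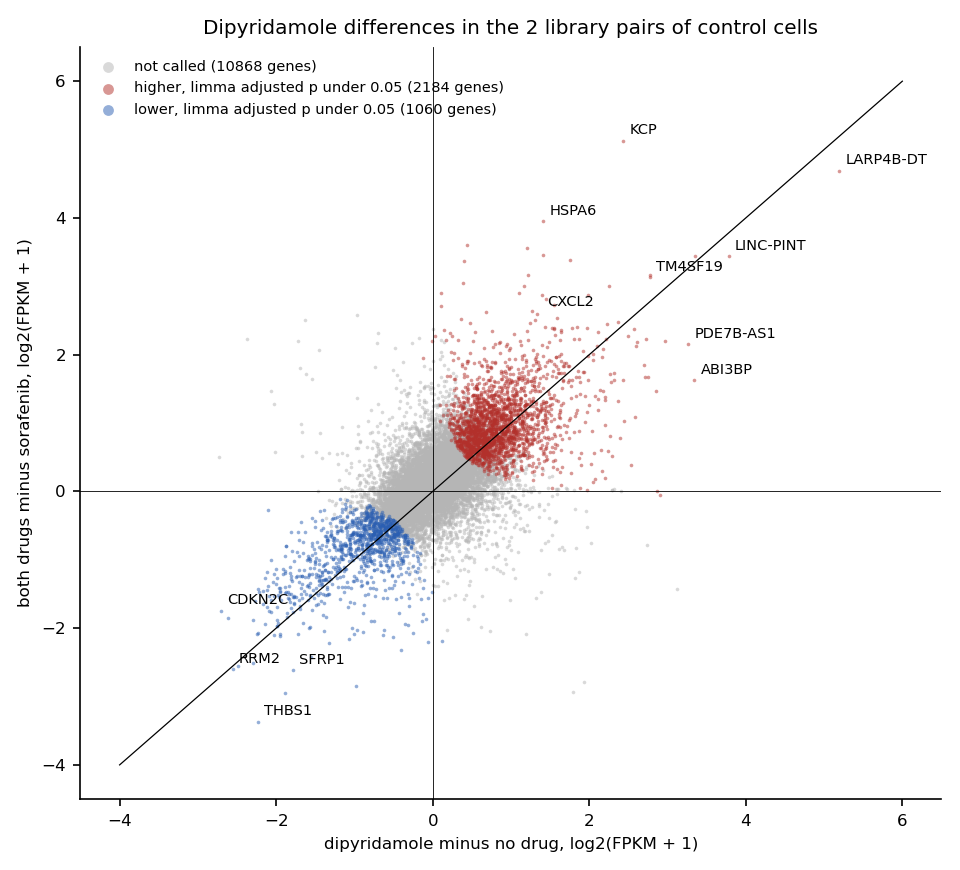
Difference of log2(FPKM + 1) with dipyridamole for 14112 genes in control cells, without sorafenib on the x axis and with sorafenib on the y axis. Red points are the 2184 genes called higher and blue points the 1060 called lower by limma, the line marks equal differences, and LARP4B-DT, LINC-PINT and THBS1 lie far out in both pairs while KCP and HSPA6 lie above the line.

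The split between rises and falls depended on scaling, and the number of calls on single libraries. The median change of all genes was 0.14 on the log2 scale. Dividing each library by a size factor moved it to -0.04 and gave 776 rises and 1324 falls, so 67.3% of calls were rises as deposited and 37.0% after scaling. Both scalings shared 1752 calls, 776 up and 976 down, and 0 genes were called in opposite directions. With 1 library left out and no sorafenib term, 20 genes rose and 14 fell without the no-drug library, 157 and 154 without the sorafenib library, 193 and 134 without the dipyridamole library, and 0 passed without the library given both drugs, the both-drug library. In 8-library refits, which add the SLC29A2 cells and leave out 1 control-cell library, between 266 and 877 genes rose and between 266 and 437 fell. These refits were chosen after seeing the data and take part of their error and sorafenib terms from SLC29A2 cells. A call kept in them is therefore not shown to hold in control cells alone. Among genes named by the rule, KCP, LINC-PINT, TM4SF19, THBS1, KIF20A, TOP2A, PIMREG, KRT18, ADCY3, ADCY7, ATP5F1A, BCL2L12, BCL2L2, BDNF, CCNA2, CDK2, DDIT3, DNAJB9, EPB41L4A-AS1, FTX, GAS5, HERPUD1, IFIT1, ITPR3, LDHA, LIF, MAP1LC3B, MCM7, MT-ATP8, NDUFB3, PLXNA3, RAPGEF3, RPS18, SLC7A5, SQSTM1, STAT2, TP53INP1 and WIPI1 overlap another measured gene, and strand use is not stated, so reads of such neighbours cannot be told apart. Of 128 called genes named by the rule, 38 kept their call in all 4 of these refits and 90 with size factors.

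Among the largest rises were non-coding transcripts, secreted factors and stress genes. LARP4B-DT, a transcript divergent from LARP4B (ENSG00000229869; GRCh38 chromosome 10, 933026 to 942743, plus strand), measured 0.147 FPKM without a drug, 0.945 with sorafenib, 41.0 with dipyridamole and 49.2 with both drugs. Its level without a drug rested on 1 read, and both libraries with dipyridamole stood far above both without it. The log2 fold change was 4.94 ± 0.23 (SE; adjusted p = 1.5e-09). It is on the log2(FPKM + 1) scale used throughout, which understates changes of low genes, and every ± is limma's moderated SE, whose variance is drawn towards that of genes of similar level and is not the spread of the 2 library pairs alone. The ± of differences between cell types comes from the fit of 8 libraries. Where 4 FPKM values follow each other below, they are in the same order: no drug, sorafenib, dipyridamole and both drugs. LINC-PINT, a long non-coding RNA induced by p53 (ENSG00000226380; GRCh38 chromosome 7, 130876809 to 130913310, minus strand), measured 7.94, 11.3, 122 and 133 FPKM a change of 3.61 ± 0.17 (SE; adjusted p = 1.5e-09). PDE7B-AS1, an antisense transcript of a phosphodiesterase gene, measured 5.78, 8.31, 64.1 and 40.5 FPKM and rose by 2.71 ± 0.23 (SE; adjusted p = 9.0e-07). LINC00520 went from under 0.7 FPKM in both libraries without dipyridamole to 8.91 and 7.32 FPKM with it (2.47 ± 0.27, adjusted p = 9.4e-06). AL359764.1 rose by 2.57 ± 0.34 (SE; adjusted p = 5.7e-05), from a lowest count of 2 reads. In none of these 5 transcripts did the libraries with and without dipyridamole overlap. They were chosen for the size of their rise, so this is no separate support. LARP4B-DT, LINC00520 and AL359764.1 averaged 0.546, 0.638 and 0.516 FPKM without dipyridamole. These 3 reached the required mean of 1 FPKM only through the libraries with dipyridamole.

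**Figure D2:**
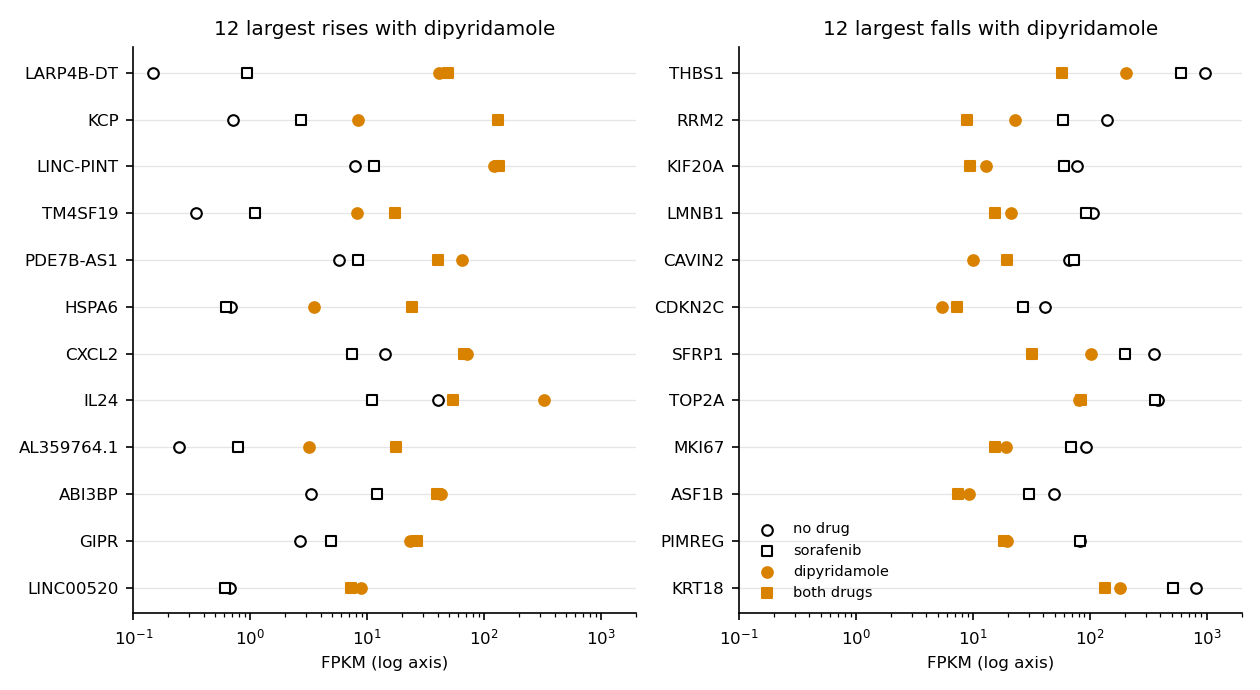
FPKM on a log axis of the 12 largest rises and the 12 largest falls among protein-coding and long non-coding genes, with 1 point per control-cell library. Filled points are libraries with dipyridamole, and for all 24 genes they lie on one side of the open points. The genes were chosen by size of change, so this separation is no separate support. LARP4B-DT, TM4SF19, HSPA6, AL359764.1 and LINC00520 averaged under 1 FPKM without dipyridamole.

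Protein-coding genes among the largest rises included both inflammatory mediators and matrix genes. The chemokine gene CXCL2 measured 14.1, 7.40, 71.3 and 66.6 FPKM (2.63 ± 0.20, adjusted p = 3.5e-07), and the cytokine gene IL24 measured 40.3, 11.0, 323 and 54.1 FPKM (2.58 ± 0.19, adjusted p = 2.9e-07). IL24 was highest with dipyridamole alone, and with both drugs it stood only slightly above the no-drug library. ABI3BP, which encodes an extracellular matrix protein, measured 3.32, 12.2, 42.8 and 39.6 FPKM (2.48 ± 0.28, adjusted p = 1.3e-05). GIPR, the receptor of an incretin hormone, rose from 2.65 and 4.86 to 23.1 and 26.6 FPKM (2.48 ± 0.21, adjusted p = 1.1e-06). TM4SF19, a tetraspanin-like membrane protein gene, rose by 2.95 ± 0.26 (SE; adjusted p = 1.2e-06); its antisense partner TM4SF19-AS1 overlaps it and rose by 2.06.

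Some of these rises were much larger where sorafenib was also given. KCP, which encodes a secreted regulator of BMP signalling, measured 0.718, 2.74, 8.30 and 130.1 FPKM, with differences of 2.44 without sorafenib and 5.13 with it (3.78 ± 0.39, adjusted p = 6.0e-06). KCP (ENSG00000135253, GRCh38 chromosome 7, 128862451 to 128910719, minus strand) overlaps ATP6V1F and ATP6V1FNB on the plus strand. It also overlaps FLNC-AS1 on the minus strand, whose reads strand use would not tell apart. ATP6V1FNB rose by 2.02 ± 0.48 (SE; adjusted p = 0.00614), and since strand use is not stated, the reads of these genes cannot be told apart. HSPA6, a strictly stress-inducible HSP70 gene, measured 0.682, 0.622, 3.48 and 24.1 FPKM, with differences of 1.41 without sorafenib and 3.95 with it (2.68 ± 0.41, adjusted p = 2.0e-04). TM4SF19, LINC-PINT, LARP4B-DT and LINC00520 kept their calls in all 4 of the 8-library refits. KCP lost its call without the sorafenib and both-drug libraries (highest adjusted p = 0.142) and HSPA6 without the sorafenib and both-drug libraries (highest adjusted p = 0.0777). CXCL2 lost its call without the both-drug library (adjusted p = 0.0767), IL24 without the dipyridamole and both-drug libraries (highest adjusted p = 0.064), GIPR without the dipyridamole and both-drug libraries (highest adjusted p = 0.0779), AL359764.1 without the sorafenib and both-drug libraries (highest adjusted p = 0.142), ABI3BP without the no-drug, dipyridamole and both-drug libraries (highest adjusted p = 0.127) and PDE7B-AS1 without the no-drug, dipyridamole and both-drug libraries (highest adjusted p = 0.0812).

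The largest fall was that of THBS1, thrombospondin, a matricellular protein that activates TGF-beta (ENSG00000137801; GRCh38 chromosome 15, 39581079 to 39599466, plus strand), at 973, 602, 206 and 57.4 FPKM (-2.80 ± 0.22, adjusted p = 6.1e-07). Both libraries with dipyridamole lay below both without it, and the lowest had both drugs. RRM2, the regulated subunit of ribonucleotide reductase (ENSG00000171848; GRCh38 chromosome 2, 10120698 to 10131419, plus strand), measured 139.7, 59.4, 22.9 and 8.96 FPKM, and its differences were -2.56 without sorafenib and -2.60 with it (-2.58 ± 0.17, adjusted p = 9.4e-08). LMNB1, which encodes lamin B1 of the nuclear envelope, measured 107, 92.4, 21.0 and 15.3 FPKM (-2.41 ± 0.17, adjusted p = 1.8e-07). MKI67, the gene of the Ki-67 proliferation marker, measured 93.2, 68.4, 19.1 and 15.5 FPKM (-2.15 ± 0.17, adjusted p = 5.4e-07). For RRM2, LMNB1 and MKI67 the 2 library pairs differed by similar amounts. The histone chaperone gene ASF1B changed by -2.09 ± 0.19 (SE; adjusted p = 1.6e-06) and the mitotic regulator gene PIMREG by -2.06 ± 0.17 (SE; adjusted p = 7.0e-07). CDKN2C, an inhibitor of the G1 kinases CDK4 and CDK6, fell from 41.3 and 26.8 to 5.46 and 7.29 FPKM (-2.23 ± 0.22, adjusted p = 4.3e-06).

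Outside the cell cycle, CAVIN2, a coat protein gene of caveolae, measured 65.8, 73.2, 9.95 and 19.7 FPKM (-2.23 ± 0.19, adjusted p = 1.1e-06). SFRP1, a secreted antagonist of WNT, measured 357, 202, 103 and 32.1 FPKM (-2.20 ± 0.19, adjusted p = 1.1e-06). The keratin gene KRT18 measured 810.3, 518, 182 and 134 FPKM (-2.04 ± 0.18, adjusted p = 1.1e-06), and its partner KRT8 1903, 1648, 537 and 538 FPKM (-1.72 ± 0.21, adjusted p = 2.5e-05), while KRT19 did not pass (-0.06 ± 0.16). The libraries with and without dipyridamole did not overlap for CAVIN2, SFRP1, KRT18 or KRT8. THBS1, KRT18, KIF20A and PIMREG each overlap another measured gene. All 12 of the largest falls kept their calls with size factors and in each of the 4 8-library refits.

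All 26 measured mitosis genes fell with dipyridamole, 25 of them at least 2-fold in both library pairs. Their median change was -1.71, against 0.14 for all genes tested. KIF20A, a kinesin of cytokinesis, measured 77.7, 60.6, 13.0 and 9.51 FPKM (-2.52 ± 0.17, adjusted p = 1.7e-07). TOP2A, the topoisomerase that untangles chromosomes before division, measured 384, 363, 80.2 and 84.4 FPKM (-2.17 ± 0.17, adjusted p = 4.4e-07). CCNA2, the S phase and G2 cyclin, measured 29, 24.9, 5.18 and 7.50 FPKM (-1.94 ± 0.21, adjusted p = 9.1e-06), and the spindle checkpoint kinase gene BUB1 81.6, 74.0, 19.8 and 19.4 FPKM (-1.93 ± 0.17, adjusted p = 1.1e-06). In all 26 genes both libraries with dipyridamole were below both without it, and the groups did not overlap for 1003 of all 1060 fallen genes. The least changed was CENPE, a kinetochore motor gene (-1.15 ± 0.20). CDC20, an activator of the anaphase-promoting complex, went from 353 to 74.9 FPKM without sorafenib and from 225 to 80.6 FPKM with it. The mitotic kinase genes PLK1 (-1.61 ± 0.19), AURKA (-1.91 ± 0.17), AURKB (-1.44 ± 0.17) and CDK1 (-1.45 ± 0.18) fell, as did the cyclin gene CCNB1 (-1.82 ± 0.16). With size factors 26 fell, and in the 8-library refits between 23 and 26. With 1 control-cell library left out and SLC29A2 cells not used, the list median ran from -1.89 to -1.55. In bulk RNA, fewer dividing cells and less of these transcripts per cell cannot be told apart.

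Promoters of genes that fell are shown because many hold the letters of known cell cycle elements. A single start in the RefSeq promoter table (GRCh38.p14) was found for 19 of the 26 mitosis genes, and the 250 bases before that start were searched on both strands. The core of the cell cycle genes homology region, TTTGAA, was in 9 of the 19, 47.4%, against 7.65% of 7172 genes tested and 14% of all 22114 promoters with 1 start. CCAAT, the box bound by NF-Y, was in 14 of the 19, 73.7%, against 36.2% of genes tested and 33.4% of all promoters. It was also in 12 of 19 promoters of fallen DNA replication genes, 63.2%, and in 4 of 5 of risen ATF4 targets, 80%. CCAAT was thus not particular to mitosis genes or to falls. A match is a description of letters and not a shown binding site. All 26 listed mitosis genes fell, so their shares are those of the list as chosen. They are no separate support for a link to dipyridamole. The 4 genes below are among the 9 with the element, and larger falls among the others are not excluded. The sequences run 5′ to 3′ on the strand of the gene, each end at the base before the start except that of TOP2A, which ends 125 bases earlier, and capitals mark TTTGAA or its reverse complement:
TOP2A, chr17:40418022-40418131, minus strand: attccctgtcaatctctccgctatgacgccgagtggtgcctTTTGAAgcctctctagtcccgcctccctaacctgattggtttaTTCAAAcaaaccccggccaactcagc
CDC20, chr1:43358871-43358980, plus strand: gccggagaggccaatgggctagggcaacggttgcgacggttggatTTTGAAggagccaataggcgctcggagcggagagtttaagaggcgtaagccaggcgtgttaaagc
BUB1B, chr15:40160959-40161068, plus strand: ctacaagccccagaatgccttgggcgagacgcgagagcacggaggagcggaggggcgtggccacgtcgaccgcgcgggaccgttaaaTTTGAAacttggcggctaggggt
KIF11, chr10:92593020-92593129, plus strand: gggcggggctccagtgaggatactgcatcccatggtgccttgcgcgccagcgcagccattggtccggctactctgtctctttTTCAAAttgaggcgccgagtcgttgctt
TOP2A held 2 copies, 1 on each strand, and the copies of BUB1B and KIF11 began 23 and 28 bases before the start. BUB1B, a spindle checkpoint gene, changed by -1.71 ± 0.16 (SE; adjusted p = 2.9e-06) and KIF11, a spindle motor gene, by -1.69 ± 0.20 (SE; adjusted p = 2.1e-05).

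Of 30 measured genes of DNA replication, 29 fell and 0 rose, with a median of -1.27 against 0.14 for all genes. In 18 of them the fall was at least 2-fold in both pairs. MCM7 and MCM4, subunits of the replicative helicase, measured 289.6, 175, 87.9 and 57.8 FPKM and 143, 99.5, 44.0 and 32.9 FPKM (-1.64 ± 0.16, adjusted p = 3.7e-06, and -1.62 ± 0.16, adjusted p = 4.0e-06). PCNA, the sliding clamp of DNA polymerases, measured 128, 96.2, 35.1 and 36.1 FPKM (-1.61 ± 0.17, adjusted p = 6.9e-06). All 30 genes were lower in both libraries with dipyridamole than in both without it, a separation common among all genes, as given above. The other measured MCM genes, MCM2, MCM3, MCM5, MCM6 and MCM10, fell by 0.94 to 1.56 on the log2 scale. Besides RRM2, the transcripts of the second reductase subunit RRM1 (-1.25 ± 0.17) and of thymidylate synthase TYMS (-1.35 ± 0.20) fell. RFC4, a clamp loader subunit, fell least (-0.61 ± 0.21, adjusted p = 0.0486), and POLE2, a polymerase subunit, did not pass (-0.52 ± 0.21, adjusted p = 0.0758). With size factors 29 genes fell, and in the 8-library refits between 18 and 24. With 1 control-cell library left out and SLC29A2 cells not used, the list median ran from -1.48 to -1.11.

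E2F1, a transcription factor that drives replication genes and is counted both among the 29 and in the G1 list below, fell (39.6, 24.5, 15.1 and 10.2 FPKM; -1.26 ± 0.18, adjusted p = 1.2e-04). An E2F element, TTTNGCGC, was in 6 of 19 promoters of the fallen replication genes, 31.6%, against 2.69% of genes tested and 1.5% of all promoters, and in 0 of the 19 mitosis promoters. TTTGAA was in 1 of the 19 replication promoters, 5.26%. Since 29 of the 30 listed genes fell, these shares come with the choice of list and are no separate support. The sequences of 2 of the 6 promoters with the element follow, and larger falls among the others are not excluded. The match on either strand is in capitals, and the sequence of CDT1 ends 140 bases before the start:
CDT1, chr16:88803539-88803648, plus strand: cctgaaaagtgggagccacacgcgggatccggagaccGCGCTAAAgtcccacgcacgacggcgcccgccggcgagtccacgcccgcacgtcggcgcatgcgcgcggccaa
E2F1, chr20:33686386-33686495, minus strand: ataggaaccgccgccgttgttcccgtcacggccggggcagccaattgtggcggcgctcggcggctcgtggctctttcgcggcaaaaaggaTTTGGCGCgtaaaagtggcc
CDT1, a licensing factor of replication origins, measured 41.4, 26.5, 13.3 and 12.7 FPKM (-1.29 ± 0.19, adjusted p = 1.6e-04).

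Among 16 measured G1 cyclins, their kinases and inhibitors, 7 fell and 1 rose, with a median of -0.50, and in the 8-library refits 3 to 5 fell and 0 to 1 rose. Besides CDKN2C and E2F1, E2F2 (-1.39 ± 0.29), the S phase kinase gene CDK2 (-1.0 ± 0.19), the cyclin D genes CCND3 (-0.88 ± 0.19) and CCND1 (-0.62 ± 0.18) and the inhibitor gene CDKN2D (-0.54 ± 0.19) fell. CCND2, at 1.15, 2.46, 2.19 and 7.81 FPKM, rose (0.96 ± 0.29, adjusted p = 0.0232). CDKN1A, the inhibitor that p53 induces, was at 204, 275, 273 and 333 FPKM and did not pass (0.35 ± 0.17, adjusted p = 0.157), and CDK4 was at 95.9, 82.5, 87.8 and 90.8 FPKM (0.01 ± 0.16, adjusted p = 0.985). With size factors 0 rose and 8 fell. E2F1 and CDK2 kept their calls in all 4 of the 8-library refits. E2F2 lost its call without the no-drug and both-drug libraries (highest adjusted p = 0.0531). CCND2 overlapped between the groups.

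**Figure D3:**
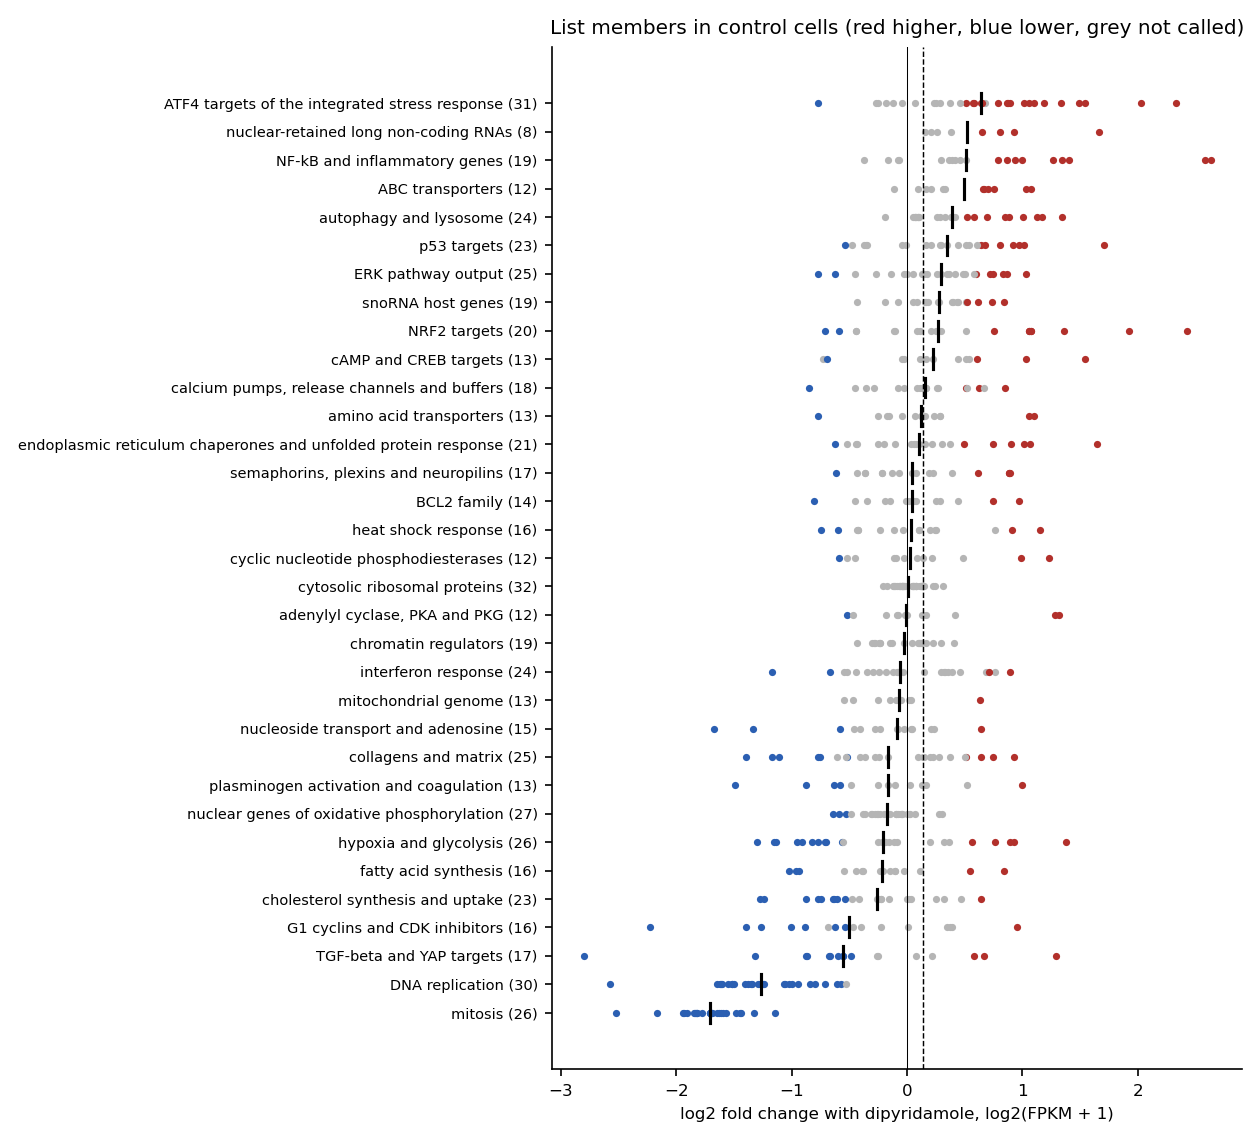
Log2 fold change with dipyridamole in control cells of each measured member of 33 gene lists, with the number of members in parentheses. Red points were called higher, blue lower and grey neither, the short black bars are list medians, and the dashed line is the median of all genes, 0.14. Mitosis (median -1.71) and DNA replication (-1.27) lie lowest and ATF4 targets (0.64) highest.

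Of 31 measured targets of ATF4, 18 rose and 1 fell, with a median of 0.64 against 0.14 for all genes. PPP1R15A, which encodes the GADD34 subunit that restarts translation, measured 72.3, 97.5, 342 and 535 FPKM (2.34 ± 0.17, adjusted p = 2.7e-07). DDIT3, the gene of the stress factor CHOP, measured 7.78, 16.2, 35.3 and 68.5 FPKM (2.03 ± 0.18, adjusted p = 1.1e-06). Both genes were higher in both libraries with dipyridamole and highest with both drugs. ATF3, a transcription factor induced by stress, measured 17.0, 25.1, 34.7 and 111 FPKM (1.55 ± 0.22, adjusted p = 9.0e-05), and NUPR1 0.135, 1.59, 1.35 and 8.97 FPKM (1.5 ± 0.31, adjusted p = 0.00256). For NUPR1 the sorafenib library exceeded the dipyridamole library, so the groups overlapped. TRIB3, a pseudokinase that restrains ATF4, rose by 1.33 ± 0.16 (SE; adjusted p = 2.5e-05) and the transcription factor gene CEBPB by 1.19 ± 0.16 (SE; adjusted p = 7.2e-05).

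Amino acid genes of the same list moved unevenly. SLC3A2 and SLC7A11, which form the cystine transporter, measured 395, 438, 736 and 1082 FPKM and 14.9, 34.6, 44.9 and 52.3 FPKM (1.10 ± 0.20, adjusted p = 8.0e-04, and 1.06 ± 0.20, adjusted p = 0.00154). SLC7A5, the other partner of SLC3A2 in the list, measured 276, 239.8, 254 and 89.0 FPKM and fell (-0.77 ± 0.23, adjusted p = 0.0235), with differences of -0.12 without sorafenib and -1.42 with it. ASNS, asparagine synthetase, rose (0.88 ± 0.23), as did the tRNA synthetase genes GARS1 (0.65 ± 0.18), CARS1 (0.58 ± 0.18) and AARS1 (0.52 ± 0.18, adjusted p = 0.0493). ASNS, GARS1, CARS1, AARS1 and SLC7A5 overlapped between the groups. PHGDH, at the entry of serine synthesis, differed by 1.12 without sorafenib and -0.54 with it and did not pass (0.29 ± 0.26, adjusted p = 0.453), and ATF4 itself did not pass (0.37 ± 0.18, adjusted p = 0.14). CHAC1, an enzyme that degrades glutathione, rose with dipyridamole alone, from 8.99 to 27.7 FPKM, and was 32.1 and 33.3 FPKM with sorafenib and with both drugs (0.79 ± 0.25, adjusted p = 0.0329). With size factors 8 ATF4 targets rose and 0 fell, and in the 8-library refits between 4 and 8 rose. PPP1R15A and DDIT3 kept their calls in all 4 of the 8-library refits. ATF3 lost its call in all 4 (highest adjusted p = 0.22) and NUPR1 without the sorafenib and both-drug libraries (highest adjusted p = 0.133). SLC3A2 lost its call without the sorafenib and both-drug libraries (highest adjusted p = 0.0812), SLC7A11 without the no-drug and dipyridamole libraries (highest adjusted p = 0.0864) and SLC7A5 in all 4 (highest adjusted p = 0.644).

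The element that ATF4 binds with CEBP partners, TGATGNAA, was found on either strand in 2 of the 5 promoters of risen ATF4 targets that had a single start, against 1.14% of genes tested and 3.35% of all promoters. Both are shown, with the match in capitals, each ending 140 bases before the start:
CHAC1, chr15:40953221-40953330, plus strand: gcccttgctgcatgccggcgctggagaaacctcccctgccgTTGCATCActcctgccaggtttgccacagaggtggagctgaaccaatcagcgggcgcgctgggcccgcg
AARS1, chr16:70289647-70289756, minus strand: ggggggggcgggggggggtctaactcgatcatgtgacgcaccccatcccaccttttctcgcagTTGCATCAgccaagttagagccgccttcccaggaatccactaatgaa
Both copies lay on the strand opposite to the gene, 209 bases before the start of CHAC1 and 187 bases before that of AARS1. The list was drawn up as targets of ATF4, so finding its element there is no separate support.

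**Figure D4:**
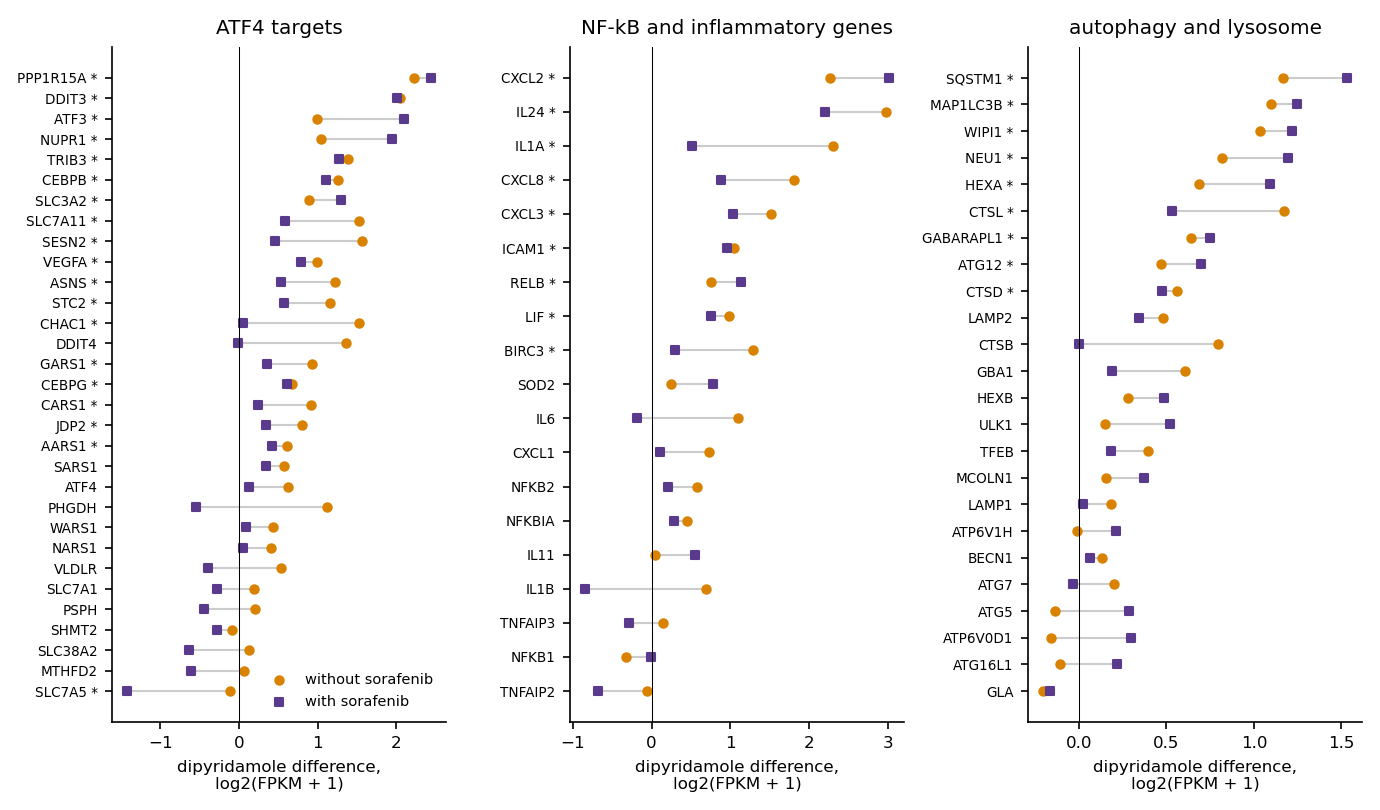
Difference of log2(FPKM + 1) with dipyridamole for the 31 ATF4 targets, 19 NF-kB and inflammatory genes and 24 autophagy and lysosome genes measured, without sorafenib (circles) and with it (squares). Asterisks mark calls by limma at an adjusted p under 0.05. PPP1R15A, DDIT3, CXCL2 and SQSTM1 were high in both pairs, while IL1A and SLC7A5 differed between them.

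Of 21 chaperone and unfolded protein genes of the endoplasmic reticulum, 6 rose and 1 fell, against 15.5% and 7.51% of all genes. The list median, 0.11, was near that of all genes. In the 8-library refits 1 to 3 rose and 0 fell. ERN1, the IRE1 sensor kinase of this response, measured 14.8, 15.3, 44.6 and 54.2 FPKM (1.65 ± 0.17, adjusted p = 7.0e-06). The co-chaperone gene DNAJB9 measured 19.1, 14.8, 33.3 and 39.5 FPKM (1.06 ± 0.19, adjusted p = 7.6e-04) and HERPUD1, of protein degradation from the reticulum, 83.8, 74.3, 157 and 164 FPKM (1.01 ± 0.16, adjusted p = 3.4e-04). HSPA5, the chaperone BiP, rose by 0.90 ± 0.21 (SE; adjusted p = 0.00654), with differences of 0.45 without sorafenib and 1.35 with it. All 4 genes were higher in both libraries with dipyridamole. The disulfide isomerase gene PDIA4 fell (-0.62 ± 0.18). With size factors 3 rose and 2 fell. HERPUD1 kept its call in all 4 of the 8-library refits. ERN1 lost its call without the both-drug library (adjusted p = 0.0511), DNAJB9 without the sorafenib, dipyridamole and both-drug libraries (highest adjusted p = 0.101) and HSPA5 in all 4 (highest adjusted p = 0.321).

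Among inflammatory genes driven by NF-kB, 9 of 19 measured rose and 0 fell, with a median of 0.52. Besides CXCL2 and IL24, the neutrophil chemokine gene CXCL8 measured 12.7, 4.42, 46.9 and 8.94 FPKM (1.34 ± 0.23, adjusted p = 5.0e-04), and IL1A, the gene of interleukin 1 alpha, 6.94, 5.70, 37.9 and 8.59 FPKM (1.41 ± 0.30, adjusted p = 0.00277). CXCL8 and IL1A were highest with dipyridamole alone, and CXCL8 overlapped between the groups. The cytokine gene LIF (0.87 ± 0.17), the adhesion gene ICAM1 (1.0 ± 0.17), the NF-kB subunit gene RELB (0.94 ± 0.17), CXCL3 (1.27 ± 0.27) and the apoptosis inhibitor gene BIRC3 (0.79 ± 0.21) rose. CXCL2 and CXCL3 are close in sequence, so reads could be shared between them. With size factors 7 rose and in the 8-library refits between 2 and 7. CXCL8 lost its call without the no-drug, dipyridamole and both-drug libraries (highest adjusted p = 0.106), IL1A in all 4 (highest adjusted p = 0.523) and LIF without the no-drug, dipyridamole and both-drug libraries (highest adjusted p = 0.0758).

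Of 24 autophagy and lysosome genes, 9 rose and 0 fell, with a median of 0.39. SQSTM1, the cargo receptor p62, measured 205, 196, 463 and 568 FPKM (1.35 ± 0.18, adjusted p = 6.2e-05), and MAP1LC3B, the membrane marker LC3, 42.1, 56.1, 91.4 and 135 FPKM (1.17 ± 0.16, adjusted p = 8.1e-05). WIPI1, which acts in the forming autophagosome, rose by 1.13 ± 0.18 (SE; adjusted p = 3.1e-04) and the sialidase gene NEU1 by 1.01 ± 0.17 (SE; adjusted p = 5.2e-04). Each of the 4 was higher in both libraries with dipyridamole than in both without it. The lysosomal enzyme genes HEXA (0.89 ± 0.20), CTSL (0.85 ± 0.18) and CTSD (0.52 ± 0.16) rose, and the regulator gene TFEB did not pass (0.29 ± 0.22). With size factors 5 rose and in the 8-library refits between 3 and 7. SQSTM1, MAP1LC3B and WIPI1 kept their calls in all 4 of the 8-library refits. NEU1 lost its call without the both-drug library (adjusted p = 0.0701).

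Of 20 NRF2 targets, the antioxidant genes, 8 rose and 2 fell, against 15.5% and 7.51% of all genes. In the 8-library refits 3 to 6 rose and 0 to 1 fell. OSGIN1 measured 17.5, 18.6, 71.7 and 143 FPKM (2.42 ± 0.20, adjusted p = 7.3e-07), and HMOX1, heme oxygenase, 27.7, 23.8, 83.7 and 120.0 FPKM (1.92 ± 0.19, adjusted p = 2.9e-06). FTL and FTH1, the ferritin chains that store iron, measured 1346, 1297, 3576 and 3236 FPKM and 71.7, 112, 168 and 210.0 FPKM (1.36 ± 0.24, adjusted p = 7.6e-04, and 1.06 ± 0.17, adjusted p = 2.8e-04). These 4 genes were higher in both libraries with dipyridamole. Both ferritin genes have many pseudogene copies, so their reads are uncertain. The pentose phosphate enzyme genes PGD (-0.71 ± 0.16) and TKT (-0.59 ± 0.17) fell. With size factors 5 rose and 4 fell. OSGIN1 and HMOX1 kept their calls in all 4 of the 8-library refits. FTL lost its call without the no-drug and both-drug libraries (highest adjusted p = 0.0707).

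Of 23 p53 targets, 7 rose and 1 fell, against 15.5% and 7.51% of all genes, with a median of 0.35. In the 8-library refits 2 to 3 rose and 0 fell. GADD45A, a growth arrest gene, measured 346, 774, 1195 and 2399.6 FPKM (1.71 ± 0.21, adjusted p = 2.5e-05). BBC3, the gene of the pro-apoptotic protein PUMA, measured 14.5, 37.7, 29.2 and 75.3 FPKM (0.97 ± 0.17, adjusted p = 6.4e-04), and its differences were 0.96 without sorafenib and 0.98 with it. SESN2, which is also an ATF4 target, measured 16, 44.6, 49.5 and 62.0 FPKM (1.02 ± 0.21, adjusted p = 0.00273), and TP53INP1 3.54, 6.11, 6.18 and 15.2 FPKM (0.92 ± 0.23, adjusted p = 0.00873). BBC3 was higher with sorafenib alone than with dipyridamole alone, so its groups overlapped. FDXR fell (-0.54 ± 0.18). With size factors 2 rose and 2 fell. GADD45A kept its call in all 4 of the 8-library refits. BBC3 lost its call without the both-drug library (adjusted p = 0.0618), SESN2 without the no-drug, dipyridamole and both-drug libraries (highest adjusted p = 0.314) and TP53INP1 in all 4 (highest adjusted p = 0.229).

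Of 14 measured BCL2 family genes, which set the threshold of apoptosis, 2 rose and 1 fell, shares near the 15.5% and 7.51% of all genes. BBC3 and the survival gene BCL2L2 (39.6, 40.1, 60.7 and 75.3 FPKM; 0.75 ± 0.17, adjusted p = 0.00403) rose, and BCL2L12 fell (67.3, 55.5, 32.9 and 36.4 FPKM; -0.80 ± 0.17, adjusted p = 0.00303). BCL2L2 lost its call without the no-drug, sorafenib and both-drug libraries (highest adjusted p = 0.0948) and BCL2L12 without the no-drug, sorafenib and dipyridamole libraries (highest adjusted p = 0.0776).

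Of 26 genes of hypoxia and glycolysis, 10 fell and 5 rose, against 7.51% and 15.5% of all genes. In the 8-library refits 2 to 4 fell and 1 to 3 rose. LDHA, lactate dehydrogenase, measured 1437, 812, 657 and 292 FPKM (-1.30 ± 0.20, adjusted p = 2.1e-04), and PGAM1, phosphoglycerate mutase, 469, 321, 181 and 166 FPKM (-1.16 ± 0.18, adjusted p = 2.2e-04). The enzyme genes TPI1 (-0.96 ± 0.18), PKM (-0.91 ± 0.23), GAPDH (-0.82 ± 0.23), ENO1 (-0.77 ± 0.22), PGK1 (-0.70 ± 0.17) and GPI (-0.57 ± 0.17) fell, and the glucose transporter gene SLC2A1 fell (-0.71 ± 0.16). A second glucose transporter gene, SLC2A3, measured 53.9, 49.5, 149 and 124 FPKM and rose (1.38 ± 0.16, adjusted p = 1.9e-05). LDHA, PGAM1 and SLC2A3 did not overlap between the groups. VEGFA (0.89 ± 0.16) and HK1 (0.57 ± 0.16) rose. ADM, the gene of the vasodilator adrenomedullin, measured 286, 225, 273 and 48.2 FPKM and was low only with both drugs (-1.13 ± 0.31, adjusted p = 0.0145). With size factors 3 rose and 9 fell. LDHA, PGAM1 and SLC2A3 kept their calls in all 4 of the 8-library refits. ADM lost its call in all 4 (highest adjusted p = 0.725).

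Of 23 genes of cholesterol synthesis and uptake, 9 fell and 1 rose, with a median of -0.26. IDI1, an isomerase gene of isoprenoid synthesis, measured 30.4, 17.1, 12.9 and 11.2 FPKM (-0.87 ± 0.20, adjusted p = 0.00491), and the sterol sensor gene INSIG1 measured 68.4, 25.1, 39.7 and 14.3 FPKM (-0.77 ± 0.17, adjusted p = 0.00357). For INSIG1 the dipyridamole library lay above the sorafenib library, so the groups overlapped, while IDI1 did not overlap. HMGCS1, hydroxymethylglutaryl-CoA synthase, rose (0.64 ± 0.20, adjusted p = 0.0294). With size factors 0 rose and 10 fell, and in the 8-library refits 1 to 5 fell. IDI1 lost its call without the no-drug and dipyridamole libraries (highest adjusted p = 0.101) and INSIG1 in all 4 (highest adjusted p = 0.134).

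Of 16 fatty acid synthesis genes, 3 fell and 2 rose, and in the 8-library refits 1 to 3 and 0 to 1. Over all genes 7.51% fell and 15.5% rose. FASN, fatty acid synthase, measured 1690.3, 738, 749 and 403 FPKM (-1.02 ± 0.20, adjusted p = 0.00177), and ACLY, which supplies cytosolic acetyl-CoA, 238, 218, 133 and 106 FPKM (-0.94 ± 0.17, adjusted p = 7.4e-04). The desaturase gene SCD5 measured 39.5, 40.0, 25.2 and 15.7 FPKM (-0.96 ± 0.19, adjusted p = 0.00178), and the acyl-CoA synthetase gene ACSL1 rose from 3.12 and 3.19 to 4.98 and 8.31 FPKM (0.85 ± 0.25, adjusted p = 0.0239). The 2 libraries with 1 drug each had almost the same FASN level, so FASN overlapped. With size factors 0 rose and 5 fell. ACLY kept its call in all 4 of the 8-library refits. FASN lost its call without the no-drug and both-drug libraries (highest adjusted p = 0.0624), SCD5 without the sorafenib and both-drug libraries (highest adjusted p = 0.101) and ACSL1 in all 4 (highest adjusted p = 0.206).

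Of 17 TGF-beta and YAP targets, 10 fell and 3 rose, with a median of -0.55, and in the 8-library refits 1 to 3 fell and 1 rose. Besides THBS1, CCN2, the matricellular connective tissue growth factor gene, measured 123, 64.3, 86.3 and 14 FPKM (-1.32 ± 0.26, adjusted p = 0.0016), and F3, the tissue factor gene that starts coagulation, 129, 47.9, 89.6 and 19.98 FPKM (-0.87 ± 0.18, adjusted p = 0.00261). Both were lowest with both drugs and overlapped between the groups. The ligand genes TGFB1 (-0.66 ± 0.17) and TGFB2 (-0.87 ± 0.23), the receptor gene TGFBR1 (-0.55 ± 0.18) and the signal transducer gene SMAD3 (-0.60 ± 0.17) fell. ANKRD1, a YAP target, went the other way at 75.7, 76.6, 164 and 214 FPKM (1.29 ± 0.17, adjusted p = 4.9e-05), and the inhibitory SMAD7 rose (0.67 ± 0.23). With size factors 1 rose and 8 fell. ANKRD1 kept its call in all 4 of the 8-library refits. CCN2 lost its call without the sorafenib, dipyridamole and both-drug libraries (highest adjusted p = 0.31) and F3 without the no-drug, sorafenib and both-drug libraries (highest adjusted p = 0.181).

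Matrix and plasminogen genes were called in both directions, against 15.5% higher and 7.51% lower among all genes. Of 25 genes of collagens and matrix 4 rose and 6 fell, and with size factors 0 and 6, and in the 8-library refits 0 to 1 and 0 to 2. The share of matrix genes that rose as deposited was near that of all genes. COL8A1 measured 13.1, 6.29, 3.15 and 2.61 FPKM (-1.39 ± 0.25, adjusted p = 9.1e-04), COL3A1 13.4, 21.7, 7.11 and 7.0 FPKM (-1.17 ± 0.22, adjusted p = 0.0011), and COL7A1, the anchoring fibril collagen, rose, with 5.5, 8.07, 13.5 and 13.7 FPKM (0.93 ± 0.21, adjusted p = 0.00509). TIMP3, an inhibitor of matrix metalloproteinases, fell (-1.11 ± 0.31, adjusted p = 0.0158). None of these 4 overlapped between the groups. COL8A1 lost its call without the no-drug, dipyridamole and both-drug libraries (highest adjusted p = 0.0862), COL3A1 in all 4 (highest adjusted p = 0.386), COL7A1 without the no-drug and dipyridamole libraries (highest adjusted p = 0.0776) and TIMP3 in all 4 (highest adjusted p = 0.0828). Of 13 plasminogen and coagulation genes 1 rose and 4 fell, with size factors 0 and 3, and in the 8-library refits 0 and 0 to 2. PLAT, tissue plasminogen activator, measured 1492, 509.6, 764 and 125 FPKM (-1.49 ± 0.23, adjusted p = 1.9e-04), and overlapped between the groups. SERPINB2, an inhibitor of plasminogen activators, measured 40.2, 5.76, 161 and 5.89 FPKM, so its call (1.0 ± 0.30, adjusted p = 0.0227) came from the pair without sorafenib. S100A10, a plasminogen receptor subunit gene, fell (-0.64 ± 0.17, adjusted p = 0.0114). PLAT lost its call without the sorafenib and both-drug libraries (highest adjusted p = 0.126), SERPINB2 in all 4 (highest adjusted p = 0.777) and S100A10 in all 4 (highest adjusted p = 0.136).

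Of the 4 genes of the equilibrative nucleoside transporter family 1 fell, against 7.51% of all genes. SLC29A1, the main equilibrative nucleoside transporter gene, measured 109, 62.3, 77.2 and 38.7 FPKM (-0.58 ± 0.16, adjusted p = 0.0159), and the library with sorafenib alone lay below that with dipyridamole alone. SLC29A2 measured 7.81, 7.11, 7.59 and 7.74 FPKM (0.04 ± 0.22, adjusted p = 0.929), SLC29A3 3.04, 2.80, 2.44 and 3.29 FPKM (-0.03 ± 0.27, adjusted p = 0.955) and SLC29A4 3.71, 4.92, 4.63 and 5.59 FPKM (0.20 ± 0.24, adjusted p = 0.579). The levels of these 3 overlapped between the groups. SLC29A1 lost its call without the no-drug, sorafenib and both-drug libraries (highest adjusted p = 0.171). The concentrative transporter genes SLC28A1 and SLC28A2 were at 0.07 FPKM or less, and SLC28A3 at 0.29 to 1.48 FPKM.

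Of 15 measured genes of nucleoside transport and adenosine, 3 fell and 1 rose, with a median of -0.08. Over all genes 7.51% fell and 15.5% rose. In the 8-library refits 0 to 2 of the 15 fell and 0 to 1 rose. TK1, the thymidine kinase of dividing cells, measured 243, 199, 65.7 and 70.8 FPKM (-1.67 ± 0.17, adjusted p = 4.4e-06). ADORA1, the inhibitory adenosine receptor, measured 8.60, 7.6, 1.77 and 3.69 FPKM (-1.34 ± 0.27, adjusted p = 0.00187), and ADORA2B, a receptor that raises cAMP, 12.6, 9.12, 16.7 and 17.8 FPKM (0.64 ± 0.20, adjusted p = 0.031). TK1 and ADORA1 were lower, and ADORA2B higher, in both libraries with dipyridamole. The ectonucleotidase gene NT5E, which makes adenosine outside the cell, measured 67.0, 50.2, 71.8 and 24.4 FPKM and did not pass (-0.46 ± 0.21, adjusted p = 0.133). The adenosine kinase gene ADK (-0.40 ± 0.17, adjusted p = 0.0896) and the deaminase gene ADA (-0.23 ± 0.17, adjusted p = 0.358) did not pass. With size factors ADK fell and ADORA2B did not pass. TK1 lost its call without the both-drug library (adjusted p = 0.0537), ADORA1 without the no-drug, dipyridamole and both-drug libraries (highest adjusted p = 0.12) and ADORA2B without the no-drug, sorafenib and both-drug libraries (highest adjusted p = 0.205).

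Among the phosphodiesterases, 2 of 12 measured genes rose and 1 fell, shares near the 15.5% and 7.51% of all genes, and with size factors 0 passed. PDE2A, whose enzyme is stimulated by cGMP, measured 6.03, 3.70, 10.4 and 14.9 FPKM (1.23 ± 0.25, adjusted p = 0.00228), and PDE4C, of the cAMP-specific family, 0.965, 0.799, 1.92 and 3.78 FPKM (0.99 ± 0.32, adjusted p = 0.0324). PDE1C, a calmodulin-dependent enzyme gene and the highest of the 12 in FPKM, measured 80.4, 101, 67.3 and 52.5 FPKM and fell (-0.59 ± 0.18, adjusted p = 0.0267). None of the 3 overlapped between the groups. PDE5A, the cGMP-specific enzyme, measured 3.08, 4.36, 2.47 and 4.37 FPKM (-0.12 ± 0.26, adjusted p = 0.786). PDE3B (-0.52 ± 0.25, adjusted p = 0.144), PDE4A (-0.45 ± 0.31, adjusted p = 0.323), PDE7A (0.09 ± 0.20, adjusted p = 0.792), PDE8A (0.14 ± 0.17, adjusted p = 0.608), PDE8B (0.48 ± 0.31, adjusted p = 0.284), PDE10A (0.21 ± 0.21, adjusted p = 0.49), PDE6D (-0.03 ± 0.21, adjusted p = 0.944) and PDE12 (-0.09 ± 0.21, adjusted p = 0.788) did not pass. The other 8 genes of the list, PDE7B among them, had means under 1 FPKM. PDE2A lost its call without the sorafenib and both-drug libraries (highest adjusted p = 0.11), PDE4C in all 4 (highest adjusted p = 0.275) and PDE1C in all 4 (highest adjusted p = 0.37).

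Of 13 targets of cAMP and CREB 3 rose and 1 fell, against 15.5% and 7.51% of all genes, and with size factors 1 rose and 0 fell. In the 8-library refits 0 to 1 rose and 0 fell. Besides ATF3, NR4A1, a nuclear receptor gene, measured 31.1, 29.2, 43.3 and 50.1 FPKM (0.61 ± 0.17, adjusted p = 0.0159), and AREG, the gene of the growth factor amphiregulin, 0.851, 0.780, 3.53 and 2.03 FPKM (1.03 ± 0.31, adjusted p = 0.0234). BDNF, at 20.8, 18.7, 17.7 and 7.78 FPKM, fell (-0.69 ± 0.22, adjusted p = 0.032), and FOS (-0.03 ± 0.27), CREM (0.44 ± 0.23) and PER1 (0.54 ± 0.19) did not pass. Of 12 genes of cyclases and kinases, RAPGEF3, the cAMP-bound exchange factor EPAC1, measured 4.15, 4.80, 12.9 and 11.7 FPKM (1.28 ± 0.22, adjusted p = 5.8e-04) and the cyclase gene ADCY7 0.414, 0.886, 2.09 and 4.39 FPKM (1.32 ± 0.31, adjusted p = 0.00532). ADCY3 fell (-0.52 ± 0.17, adjusted p = 0.0358), and with size factors 2 rose and 2 fell. RAPGEF3 kept its call in all 4 of the 8-library refits. NR4A1 lost its call in all 4 (highest adjusted p = 0.35), AREG in all 4 (highest adjusted p = 0.229), BDNF in all 4 (highest adjusted p = 0.547), ADCY7 without the sorafenib and both-drug libraries (highest adjusted p = 0.0688) and ADCY3 in all 4 (highest adjusted p = 0.159).

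Of 25 genes of ERK pathway output, 6 rose and 2 fell, against 15.5% and 7.51% of all genes, and with size factors 1 and 3. In the 8-library refits 0 to 1 rose and 0 fell. EGR1, an immediate-early gene, measured 12.2, 0.511, 31.9 and 0.937 FPKM (0.84 ± 0.26, adjusted p = 0.0313), so it was below 1 FPKM wherever sorafenib was given. The other rises were LIF, AREG, HBEGF (0.72 ± 0.21), SPRY2 (0.74 ± 0.20) and DUSP5 (0.60 ± 0.20), and ETV1 (-0.77 ± 0.23, adjusted p = 0.0244) and CCND1 fell. EGR1 lost its call in all 4 of the 8-library refits (highest adjusted p = 0.656) and ETV1 in all 4 (highest adjusted p = 0.13).

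Long non-coding RNAs rose far more often than they fell. Of 1372 measured, 313 rose (22.8%) and 14 fell (1%), with a median of 0.43, and of 11700 protein-coding genes 1595 rose (13.6%) and 1018 fell (8.7%), with a median of 0.09. With size factors the counts were 130 and 15, and 535 and 1293. Of 540 pseudogenes 140 rose and 6 fell. NEAT1, the scaffold of paraspeckles, measured 185, 173, 617 and 525 FPKM (1.67 ± 0.17, adjusted p = 6.4e-06), and MALAT1, of nuclear speckles, 337, 316, 901 and 429.9 FPKM (0.93 ± 0.22, adjusted p = 0.0058). Both were higher in both libraries with dipyridamole, MALAT1 much more so with dipyridamole alone. In all, 4 of 8 nuclear-retained transcripts rose, 1 with size factors and 0 to 1 in the 8-library refits. Of 19 snoRNA host genes 4 rose, 0 with size factors and 0 to 5 in the 8-library refits, among them GAS5 (358, 358, 518 and 692 FPKM; 0.74 ± 0.19, adjusted p = 0.00998) and EPB41L4A-AS1 (14.8, 12.6, 18.3 and 34.9 FPKM; 0.84 ± 0.23, adjusted p = 0.0136). Over all genes tested 15.5% rose. The share of non-coding reads rose with dipyridamole, as given above, and its part in these counts was not tested. NEAT1 lost its call without the no-drug, dipyridamole and both-drug libraries (highest adjusted p = 0.102), MALAT1 without the no-drug, sorafenib and dipyridamole libraries (highest adjusted p = 0.177), GAS5 without the no-drug, sorafenib and both-drug libraries (highest adjusted p = 0.124) and EPB41L4A-AS1 without the no-drug, sorafenib and both-drug libraries (highest adjusted p = 0.278).

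Of 12 measured ABC transporter genes 6 rose and 0 fell, with a median of 0.49, and 1 rose with size factors and 1 to 2 in the 8-library refits. The drug efflux genes ABCB1 and ABCG2 were below the filter on low values, at 0.065 FPKM at most and 0 FPKM. ABCC3 measured 1.01, 1.12, 3.65 and 3.06 FPKM (1.07 ± 0.29, adjusted p = 0.0138), ABCC2 25.3, 33.4, 43.8 and 56.4 FPKM (0.75 ± 0.17, adjusted p = 0.00375), ABCA3 1.56, 2.19, 4.94 and 4.78 FPKM (1.04 ± 0.27, adjusted p = 0.0105), and ABCA1, which exports cholesterol, 8.44, 9.68, 14.2 and 16.6 FPKM (0.70 ± 0.20, adjusted p = 0.0169). None of the 4 overlapped between the groups. ABCC3 lost its call without the no-drug, dipyridamole and both-drug libraries (highest adjusted p = 0.0918), ABCC2 without the sorafenib, dipyridamole and both-drug libraries (highest adjusted p = 0.0681), ABCA3 without the no-drug, sorafenib and dipyridamole libraries (highest adjusted p = 0.0887) and ABCA1 in all 4 (highest adjusted p = 0.101).

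Several other groups are given by their counts, to be read against the 15.5% of all genes called higher and 7.51% called lower. Of 13 amino acid transporter genes SLC3A2 and SLC7A11 rose and SLC7A5 fell, all given above, and 1 rose with size factors. Of 17 semaphorin, plexin and neuropilin genes 4 rose and 1 fell, among them the receptor genes PLXND1 (31.7, 45.3, 56.6 and 90.0 FPKM; 0.89 ± 0.16, adjusted p = 9.8e-04), PLXNB1 (0.89 ± 0.21, adjusted p = 0.00544) and PLXNA3 (0.88 ± 0.16, adjusted p = 0.00116), and SEMA7A fell (-0.61 ± 0.20, adjusted p = 0.0346). With size factors 2 rose and 0 fell. PLXND1 lost its call without the both-drug library (adjusted p = 0.068), PLXNB1 without the no-drug and dipyridamole libraries (highest adjusted p = 0.0728), PLXNA3 without the sorafenib and both-drug libraries (highest adjusted p = 0.0646) and SEMA7A in all 4 (highest adjusted p = 0.542). Of 18 calcium genes the pump genes ATP2B1 (0.85 ± 0.17, adjusted p = 0.00213) and ATP2A3 (0.62 ± 0.21, adjusted p = 0.0382) and the release channel gene ITPR3 (0.51 ± 0.17, adjusted p = 0.0361) rose and the calmodulin gene CALM3 fell (-0.85 ± 0.18, adjusted p = 0.00272). With size factors 0 rose and 2 fell. ATP2B1 lost its call without the no-drug library (adjusted p = 0.0604), ATP2A3 in all 4 (highest adjusted p = 0.234), ITPR3 in all 4 (highest adjusted p = 0.131) and CALM3 without the no-drug library (adjusted p = 0.0566). Of 24 interferon genes STAT2 (0.89 ± 0.16, adjusted p = 8.5e-04) and IRF7 (0.71 ± 0.18, adjusted p = 0.0112) rose and IFIT1 (-1.17 ± 0.24, adjusted p = 0.00216) and OAS3 (-0.66 ± 0.17, adjusted p = 0.0115) fell. With size factors 1 rose and 3 fell. STAT2 lost its call without the both-drug library (adjusted p = 0.0619), IRF7 in all 4 (highest adjusted p = 0.202), IFIT1 without the sorafenib, dipyridamole and both-drug libraries (highest adjusted p = 0.0925) and OAS3 without the no-drug, dipyridamole and both-drug libraries (highest adjusted p = 0.101).

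Of 16 heat shock genes 2 rose and 2 fell, against 15.5% and 7.51% of all genes. The inducible HSP70 genes HSPA1A and HSPA1B measured 40.5, 28.0, 36.9 and 111 FPKM and 30.3, 19.2, 31.0 and 96.6 FPKM, so that only the library with both drugs was high (0.91 ± 0.30, adjusted p = 0.0392, and 1.15 ± 0.32, adjusted p = 0.0165). These genes are near-identical, so their reads are uncertain. HSP90AB1 (-0.60 ± 0.20, adjusted p = 0.0364) and DNAJB4 (-0.75 ± 0.16, adjusted p = 0.00349) fell, and with size factors 0 of the 16 rose and 3 fell. HSPA1A lost its call without the sorafenib, dipyridamole and both-drug libraries (highest adjusted p = 0.846), HSPA1B in all 4 (highest adjusted p = 0.725), HSP90AB1 in all 4 (highest adjusted p = 0.135) and DNAJB4 without the no-drug, sorafenib and both-drug libraries (highest adjusted p = 0.0855).

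Calls in housekeeping groups are to be read against the 15.5% of all genes called higher and 7.51% called lower. Of 32 cytosolic ribosomal protein genes 0 passed, and their changes ran from -0.20 to 0.32, with RPS27 at 779, 876, 934 and 1131 FPKM (0.32 ± 0.20, adjusted p = 0.285), RPL37 at 0.25 ± 0.17 and RPS18 at 0.23 ± 0.23. Of 19 chromatin regulators 0 passed, among them the remodeller genes ARID1A (-0.43 ± 0.16, adjusted p = 0.0622) and SMARCA4 (0.30 ± 0.17, adjusted p = 0.234) and the methyltransferase gene KMT2C (0.41 ± 0.20, adjusted p = 0.15), and ARID1A fell with size factors (adjusted p = 0.0358). Of 27 nuclear genes of oxidative phosphorylation ATP5F1A (-0.64 ± 0.16, adjusted p = 0.00966), SDHA (-0.59 ± 0.16, adjusted p = 0.0153) and NDUFB3 (-0.53 ± 0.17, adjusted p = 0.0308) fell and 0 rose. The median of these 27 was -0.17, against 0.14 for all genes, and with size factors 3 fell and 0 rose. Of 13 mitochondrial transcripts MT-ATP8, at 9.26, 3.10, 15.5 and 5.16 FPKM, passed (0.64 ± 0.22, adjusted p = 0.0467), and the mitochondrial share of reads was highest with dipyridamole alone and lowest with both drugs, as given above. ATP5F1A lost its call in all 4 of the 8-library refits (highest adjusted p = 0.0826), SDHA in all 4 (highest adjusted p = 0.153), NDUFB3 in all 4 (highest adjusted p = 0.591) and MT-ATP8 in all 4 (highest adjusted p = 0.587).

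The same drug comparison in cells with ectopic SLC29A2 gave no gene whose response differed at a limma adjusted p under 0.05 (0% of 14112), and 2788 genes differed at an unadjusted p under 0.05. With all pairwise interactions in the model 1719 genes passed, so the count of 0 depended on how the other interactions were treated. Across genes the 2 responses had a Pearson r of 0.643. Of the 2184 genes that rose in control cells 1852 had a positive difference in SLC29A2 cells, and of the 1060 that fell 1005 had a negative one. The median change of all genes in SLC29A2 cells was 0.00, against 0.14 in control cells.

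Cell cycle lists had medians well below 0 in both cell types, and the responses of some non-coding RNAs lay further apart without passing the test. The mitosis list had a median of -1.48 in SLC29A2 cells, and the DNA replication list of -1.22. RRM2 measured 136, 63.2, 19.95 and 7.88 FPKM in SLC29A2 cells without a drug, with sorafenib, with dipyridamole and with both drugs, and THBS1 1189, 735, 148 and 77.8 FPKM. ATF4 targets had a median of 0.82 there and 0.64 in control cells. LARP4B-DT measured 5.27, 5.94, 7.59 and 2.83 FPKM in SLC29A2 cells, a change of -0.20 ± 0.40; the difference between the responses was -5.15 ± 0.57 and did not pass (adjusted p = 0.105). LINC-PINT measured 9.66, 10.8, 66.9 and 28.5 FPKM, a change of 2.0 against 3.61 (difference adjusted p = 0.164), and NEAT1 254, 228, 465 and 175 FPKM, 0.24 against 1.67 (0.159). TK1 measured 192, 166, 98.0 and 157 FPKM, -0.52 against -1.67 (0.143), and FASN 1097, 512, 914 and 559.8 FPKM, -0.07 against -1.02 (0.125). These 5 genes were chosen after their values were seen, and none of the 5 differences passed.

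**Figure D5:**
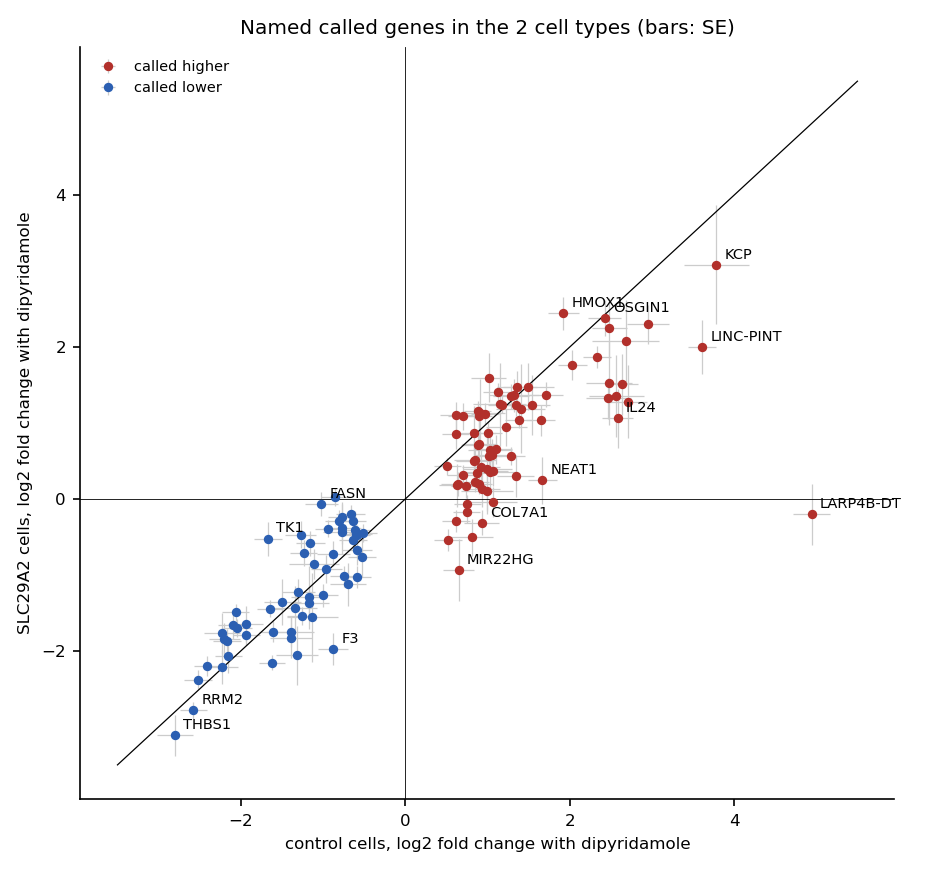
Log2 fold change with dipyridamole of the 128 called genes named by the rule, in control cells on the x axis and SLC29A2 cells on the y axis, with bars of 1 SE and a line of equal change. Falls such as THBS1 and RRM2 lie near the line, and LARP4B-DT (4.94 in control cells) and NEAT1 lie well below it.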

How the data were processed

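RNA of 8 SK-Hep1 libraries was selected by poly(A) and prepared with a NEBNext Ultra kit, per the labels' protocols. The submitters' processing notes list TopHat2 2.0, HTSeq 0.6.1, edgeR and GRCh38.p12, without roles. The authors deposited FPKM per gene and library, and strand use is not given in the sources used here. FPKM multiplied by mean transcript length of GENCODE 29 gave whole reads for 93.61% of values (tolerance 0.01 read), from which depth was taken. The tests rest on the spread between libraries, not on counting error.

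The 14112 genes whose FPKM averaged 1 or more over the 4 control-cell libraries were analysed as log2(FPKM + 1) with limma 3.58.1 in R 4.3.3, with terms for sorafenib and dipyridamole and moderated variances following the mean. The fit has 1 residual degree of freedom and 15.6 prior ones. Benjamini-Hochberg adjustment ran over all genes, with a threshold of 0.05. Cell types were compared by an interaction in a fit of 8 libraries. The fit was tested on simulated data drawn without a sorafenib effect or an interaction of the drugs. That test therefore does not cover a change of the dipyridamole response by sorafenib. Named genes were the 12 largest changes in each direction that had the same sign in both library pairs, up to 4 called members of each list, and all SLC29 and phosphodiesterase genes; others named were chosen after their values were seen. The members, the lists and the promoters shown were chosen with earlier results of these data known. Alternatives were another pseudocount and filter, size factors, other model terms, reads with voom, and leaving out each library. A few list members are counted but not reported here by name.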

Additional observations from a re-analysis of the deposited data

Results flagged for a closer look

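Of the called genes named by the rule, 7 rose with dipyridamole in both library pairs of control cells and were lower with it in both pairs of SLC29A2 cells. The difference of the responses (SLC29A2 cells minus control cells, log2 scale) was tested by the cell type interaction in limma and passed for none of them. For ABCC3 it was -1.11 ± 0.28 (SE; adjusted p = 0.133), from 1.07 in control cells and -0.04 in SLC29A2 cells. For BCL2L2 it was -0.917 ± 0.20 (SE; adjusted p = 0.115), from 0.75 in control cells and -0.17 in SLC29A2 cells. For COL7A1 it was -1.24 ± 0.23 (SE; adjusted p = 0.108), from 0.93 in control cells and -0.31 in SLC29A2 cells. For FTX it was -1.32 ± 0.34 (SE; adjusted p = 0.134), from 0.81 in control cells and -0.51 in SLC29A2 cells. For MIR22HG it was -1.58 ± 0.58 (SE; adjusted p = 0.204), from 0.65 in control cells and -0.93 in SLC29A2 cells. For SNHG17 it was -0.911 ± 0.20 (SE; adjusted p = 0.117), from 0.62 in control cells and -0.29 in SLC29A2 cells. For ZFAS1 it was -1.06 ± 0.20 (SE; adjusted p = 0.108), from 0.52 in control cells and -0.54 in SLC29A2 cells. FTX, MIR22HG, SNHG17 and ZFAS1 are non-coding genes, and the non-coding share of reads rose with dipyridamole in control cells. Its part in these differences was not tested. With size factors only BCL2L2 of the 7 kept its call in control cells (limma adjusted p = 0.0488). FTX, MIR22HG and ZFAS1 lost their calls in all 4 of the 8-library refits. FTX overlaps other measured genes on both strands, so its reads cannot be told apart from theirs. Of all 2184 genes that rose in control cells, 1852 had a positive change in SLC29A2 cells.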

How the results depend on the processing

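The number of calls depended strongly on the model, and the direction of named genes did so little. With no filter on low values 164 genes rose and 166 fell, with no sorafenib term 119 and 163, with size factors 776 rose, and without the mean-variance trend 643 fell. Leaving out 1 library gave 0 to 877 rises and 0 to 437 falls; 0 of both passed without the both-drug library in the 3-library fit, and with 8 libraries, an alternative chosen after seeing the data, 266 rose and 266 fell without it. The count of differing responses was 1719 with all 3 pairwise interactions and 0 to 1 with 1 library left out, the 1 without the dipyridamole library of SLC29A2 cells. Of 134 genes named, signs reversed only in 3-library fits. There ADM ran from -2.37 (without dipyridamole) to 0.109 (without both drugs) and F3 from -1.93 to 0.181 in the same fits. Without the sorafenib library EGR1 was -0.729, MT-ATP8 -0.0272 and SERPINB2 -0.305; these genes ran from -1.21, -0.0728 and -1.28 without the dipyridamole library to 2.88, 1.34 and 3.27 without the both-drug library. All 3-library fits have fewer samples and no sorafenib term; the cause of the other shifts was not tested. A pseudocount of 0.1 left 125 of the 134 on their side of the threshold. No paired analysis by replicate number was possible because each condition has 1 library; the sorafenib term holds the pairing used. Genes near 1 FPKM rest on few reads.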

Other observations

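The 20 genes whose differences between the library pairs were furthest apart were chosen after their values were seen, and are given in part as values without a test. DKK1, an inhibitor of WNT signalling, was at 720.5, 721 and 878 FPKM without a drug, with sorafenib and with dipyridamole, and at 251 FPKM with both drugs. WNT5B, a WNT ligand gene, was at 618, 545, 860 and 219 FPKM in the same order. IGFBP3, a carrier of insulin-like growth factors, was at 691, 1005, 649 and 276 FPKM, and ID1, an inhibitor of differentiation factors, at 29.1, 49.7, 24.3 and 11.1 FPKM. In all 4 genes the library given both drugs was the lowest.

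Other genes stood out upward there. ERFE, an iron-regulating hormone gene, was at 10.8, 13.1, 15.4 and 76.1 FPKM, and LRRC49 at 5.45, 4.98, 3.98 and 21.2 FPKM. The axon guidance receptor gene PLXNA2, at 7.10, 19.5, 23.9 and 10.4 FPKM, the growth factor receptor gene ERBB3, at 24.2, 74.3, 45.0 and 32.8 FPKM, and the glycine transporter gene SLC6A9, at 13.5, 30.02, 27.6 and 17.7 FPKM, were higher with either drug alone than without a drug or with both. The mitochondrial transcript MT-ND6 was at 113, 91.9, 151 and 31.6 FPKM. Each condition has 1 library, so a response to the drug combination and a library that differs for another reason cannot be told apart.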
